A study of Mus musculus with 52 samples.

Results

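Tumours of 4T1 cells, a mouse mammary carcinoma line, were compared by how much RNA they held from 3 milk genes. A score was taken for each library as the mean log2(TPM + 1) of Csn2 (beta-casein), Csn3 (kappa-casein) and Btn1a1 (butyrophilin, a protein of the milk fat globule membrane), where TPM is a level scaled for gene length and depth. Within each of the 6 study groups the third of libraries with the highest scores and the third with the lowest were selected on this score, rounded down, which gave 15 high and 15 low libraries, 30 of 52 in all. The remaining 22 libraries are called middle libraries. Libraries were thus chosen by the measured TPM of the 3 genes, and their levels are given as a description without a test, and every test is on other genes.

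The series asked how anti-CTLA4 and anti-PDL1, antibodies against proteins that restrain T cells, act on gene expression in tumours of young and old mice, with an isotype antibody as the negative control. Balb/C mice, with their own immune system, carried tumours grown from 100000 4T1 cells placed in the left mammary fat pad number 4. Young hosts were 8 to 10 weeks old by the sample labels, with a protocol range that reached 12 weeks, and old hosts were more than 12 months old. All groups received 3 doses of 200 µg of their antibody on days 7, 10 and 13. The young groups gave 2 high and 2 low libraries of 7 under isotype, 3 and 3 of 10 under anti-PDL1, and 4 and 4 of 12 under anti-CTLA4. Each old group gave 2 high and 2 low libraries, of 7 under isotype, 8 under anti-PDL1 and 8 under anti-CTLA4. Tumours were no larger than about 150 mm3, and messenger RNA was sequenced as strand-marked libraries in 3 sequencing batches. The labels number biological replicates without naming an animal, so a p-value here speaks of the spread among libraries, part of which may be technical. All tumours came from 1 cell line, and in bulk RNA more cells of a type and more RNA per cell cannot be told apart.

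Milk genes are the marker of the secretory, or alveolar, cell of the mammary gland. In pregnancy and lactation prolactin activates its receptor and the transcription factor STAT5, which acts with Elf5 to turn on the caseins and the whey proteins. Caseins carry calcium and phosphate, whey proteins include the lactose synthase cofactor alpha-lactalbumin, and milk fat leaves the cell wrapped in a membrane that holds butyrophilin. The fat pad that receives 4T1 cells also holds the ducts of the host's own gland, together with fat, vessels and, near the number 4 gland, a lymph node.

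The score ran from 2.15 to 5.92 with a median of 4.57 in the high libraries and from 0.953 to 3.16 with a median of 1.80 in the low libraries. The cut was relative to each group, so the classes overlapped across groups. The 2 high libraries of old isotype mice scored 2.15 and 2.29, below the 3 low libraries of young anti-PDL1 mice, whose scores ran from 2.67 to 3.16. Nor did the low libraries lack milk transcripts. Csn3 was present in all 15 of them, at 4.24 to 30.04 TPM with a median of 15.7, against 14.6 to 138 with a median of 73.6 in the high libraries. Csn2 ran from 0 to 11.0 TPM in the low libraries with a median of 1.53, and was at 0 in 3 of them, against 2.57 to 405 with a median of 82.9 in the high libraries. Btn1a1 was low throughout, at 0.0285 to 0.943 TPM against 0.326 to 3.02. The libraries are therefore called high and low, not with and without milk transcripts. Some cuts fell between close neighbours, as in young anti-PDL1 tumours, where the lowest high library scored 4.42 and the highest middle library 4.41. The widest step was in old anti-CTLA4 tumours, where the highest low library scored 1.80 and the lowest middle library 2.96.

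**Figure D1:**
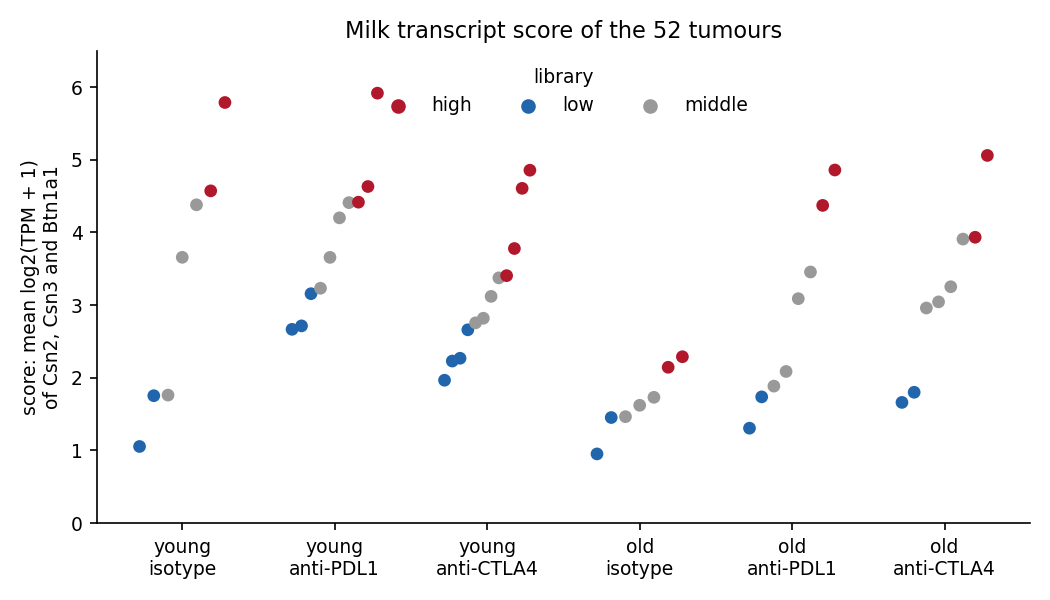
Score of each of the 52 libraries (mean log2(TPM + 1) of Csn2, Csn3 and Btn1a1, vertical axis) in the 6 study groups, with the libraries of a group in order of score and points coloured by class. The high libraries of old isotype mice, at 2.15 and 2.29, sit below the low libraries of young anti-PDL1 mice.

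Depth was alike in the classes, with 9549847 to 46165114 counts in the high and 14090467 to 39677129 in the low libraries. Sequencing batches 1, 2 and 3 gave 5, 7 and 3 high and 7, 5 and 3 low libraries. The imbalance lay in young anti-CTLA4 tumours, with 0 high and 2 low libraries in batch 1 and 2 high and 0 low in batch 2, where class and batch cannot be told apart, and no other group had high or low libraries both in batch 2 and in another batch. Without that group 5 of the 8 genes named below passed, Csn1s1, Csn1s2a, Wap, Lalba and Elf5, with none added. The TMM factor, which scales a library for its composition, ran from 0.908 to 1.21 in the high and from 0.618 to 1.159 in the low libraries, and 3 libraries lay under 0.8. The length trend, which says how strongly the long genes of a library stand above its short ones relative to other libraries (a slope of log2 CPM on log2 length), had a median of 0.097 in the high and 0.014 in the low libraries. Krt8, the keratin of luminal and of 4T1 epithelium, was at 154 to 958 TPM in the high and 94.0 to 743 in the low libraries, so epithelial RNA was plentiful in both.

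Apart from the score genes, 8 of 18006 genes tested differed between high and low libraries (0.0444%; edgeR quasi-likelihood test with group and batch as terms, Benjamini-Hochberg adjusted p under 0.05). The 7 higher genes (0.0389%) were the caseins Csn1s1 and Csn1s2a, the whey genes Wap and Lalba, the milk enzyme Lao1, the alveolar transcription factor Elf5 and the collagen gene Col9a1. The 1 lower gene (0.00555%) was Cxcl1, a chemokine that attracts neutrophils. Of the 7 higher genes 5 encode milk proteins, and Elf5 is a regulator of the cells that make them. Wap and Lao1 had 8 counts each over the 15 low libraries, where the filter on low counts used a minimum of 10. These 2 genes were tested through the high libraries alone and could only be called higher, so their calls are a description. Csn1s2a had 117 counts over the 15 low libraries and would not have passed the filter on these alone. Its call is therefore also a description, as is the count of 5 milk genes. DESeq2 called 998 of 18006 genes on the same libraries, 302 higher and 696 lower, among them 7 of these 8. Those counts over all genes are the background for the DESeq2 calls given by list below. At an unadjusted p under 0.05, 1658 genes were higher (9.21%) and 2085 lower (11.6%) in the edgeR test.

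**Figure D2:**
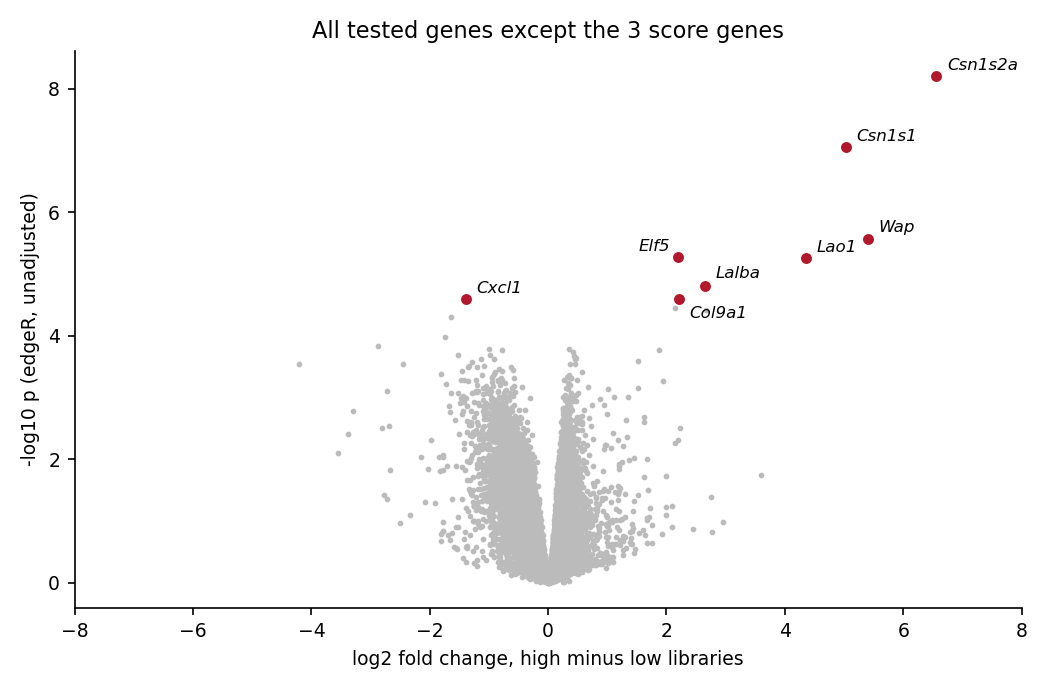
Log2 fold change of high against low libraries (horizontal axis) and -log10 of the unadjusted edgeR p (vertical axis) for each gene tested except the 3 score genes. The 8 genes past an adjusted p of 0.05 are in red: the milk genes lie far to the right, at 2.65 to 6.56, and Cxcl1, at -1.38, is the one on the left.

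The genes of the caseins lie side by side on chromosome 5, and those of the whey proteins elsewhere. In the GRCm38 build, Csn1s1 spans chr5:87666208-87682578 and Csn1s2a chr5:87774567-87788797 on the plus strand, with the score gene Csn2 at chr5:87692624-87699630 on the minus strand between them and Csn3 at chr5:87925579-87932665. Wap lies at chr11:6635482-6638637 and Lalba at chr15:98480400-98482721, both on the minus strand. The 250 bases before the RefSeq start of Csn1s1, Csn1s2a and Wap are shown because these genes were higher in the same libraries, and because STAT5 is known to bind casein promoters. Capitals mark each match to TTCNNNGAA, the letters that STAT factors recognise, which read the same on both strands. Sequences are from RefSeq (GRCm38.p6) and are given 5′ to 3′ on the strand of the gene. The windows are chr5:87665958-87666207 for Csn1s1, chr5:87774200-87774449 for Csn1s2a and chr11:6638650-6638899 for Wap.
Csn1s1: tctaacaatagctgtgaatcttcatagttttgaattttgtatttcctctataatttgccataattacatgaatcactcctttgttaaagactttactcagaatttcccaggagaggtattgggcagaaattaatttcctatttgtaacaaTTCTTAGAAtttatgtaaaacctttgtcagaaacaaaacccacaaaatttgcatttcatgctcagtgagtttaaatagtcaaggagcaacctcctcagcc
Csn1s2a: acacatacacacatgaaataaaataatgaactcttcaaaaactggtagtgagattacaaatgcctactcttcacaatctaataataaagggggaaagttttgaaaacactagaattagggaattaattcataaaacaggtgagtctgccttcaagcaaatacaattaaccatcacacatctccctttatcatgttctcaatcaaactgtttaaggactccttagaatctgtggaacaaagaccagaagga
Wap: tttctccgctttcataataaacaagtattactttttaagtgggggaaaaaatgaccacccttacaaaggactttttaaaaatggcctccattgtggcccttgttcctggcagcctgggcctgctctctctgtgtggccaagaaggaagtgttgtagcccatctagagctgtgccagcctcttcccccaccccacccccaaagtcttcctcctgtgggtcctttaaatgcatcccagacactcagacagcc
Csn1s1 held TTCTTAGAA from 100 bases before its RefSeq start, and the window of Csn2 held TTCTTGGAA from 93 bases before its own. Glycam1, a milk gene that did not pass, held TTCCCAGAA from 145 bases before its start. The windows of Csn1s2a and Wap held no match, nor did those of Lalba, Lao1, Elf5, Col9a1, Cxcl1 and Cel. Of 32851 promoter windows of this length in the table, 2306 (7.02%) held a match. Windows depend on the annotation, since RefSeq and GENCODE place some starts differently. The RefSeq start of Csn1s2a lies before the GENCODE start given above, 205 bases of the Csn2 window lie inside the GENCODE gene, and for Lao1, Elf5 and 1 of the 2 Col9a1 windows all 250 do.

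Csn1s2a, an alpha-s2-casein, showed the steepest difference. Its level ran from 0.303 to 259 TPM with a median of 18.5 in the high libraries and from 0 to 2.87 with a median of 0.310 in the low ones, where 3 libraries held no count. Of the 15 high libraries 13 lay above the highest low one. Within each of the 6 groups every high library lay above every low one. Young isotype tumours had 50.6 and 259 TPM in the high libraries and 0.310 and 0.382 in the low, and old isotype tumours had 0.303 and 2.94 in the high and 0 and 0.0806 in the low. The log2 fold change was 6.56 ± 0.76 (SE, adjusted p = 6.62e-05). With the libraries of a single batch it was 9.65 in batch 1, 6.31 in batch 2 and 4.44 in batch 3, with adjusted p values of 0.943, 0.176 and 0.964.

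Csn1s1, alpha-s1-casein, behaved alike at lower levels. It ran from 1.85 to 88.5 TPM with a median of 15.3 in the high libraries and from 0 to 4.96 with a median of 0.225 in the low, 1 of which held no count. Again the classes did not overlap within any of the 6 groups, although the low young anti-PDL1 libraries, at 0.976, 2.48 and 4.96 TPM, reached the level of the high old isotype libraries, at 1.99 and 2.00. This was a log2 fold change of 5.03 ± 0.68 (adjusted p = 0.000401). Within batches it was 7.70, 4.64 and 2.71, with adjusted p values of 0.0270, 0.505 and 0.964. Csn1s1 and Csn1s2a were the 2 genes of 18006 (0.0111%) whose classes did not overlap in any group. Separation in at least 5 groups with the high libraries above was seen for 6 genes (0.0333%), which added Elf5, Arf6, Dsc2 and Ube2v1. The last 3 were chosen after their values were seen: log2 fold changes were 0.33 for Arf6, 0.68 for Dsc2 and 0.20 for Ube2v1, with adjusted p values of 0.114, 0.114 and 0.145.

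Among the neighbours of these genes Csn1s2b, the remaining casein, was barely detected, with 20 counts over the 15 high and 6 over the 15 low libraries, and was not tested. Odam, a gene of the same interval known from enamel epithelium, had 2 and 7 counts, and Prr27 had none in either class. Of the 13 annotated genes from Csn1s1 to Csn3, 4 passed the filter on low counts, and these were the caseins Csn1s1, Csn2, Csn1s2a and Csn3.

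Wap, whey acidic protein, is a marker of full secretory differentiation and was near the limit of detection in most libraries. It ran from 0 to 28.3 TPM with a median of 0.846 in the high libraries, 2 of which had no count, and from 0 to 0.223 in the low libraries, 9 of which had no count. Over all libraries of a class this was 508 against 8 counts. The high level rested on a few tumours: 12 of the 15 high libraries lay above the highest low one, but 6 of them, at 2.68 to 28.3 TPM, were above 1 TPM. Fitted over all libraries the difference was a log2 fold change of 5.41 ± 0.90 (adjusted p = 0.00973), and 4.69 without the old anti-PDL1 library at 16.1 TPM (adjusted p = 0.0315). In batch 2 alone it was 6.07 (adjusted p = 0.505), and with the neutrophil list level as a covariate 4.57 (adjusted p = 0.147).

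Lalba, alpha-lactalbumin, is the cofactor that makes a galactosyltransferase produce lactose. It ran from 0.934 to 25.9 TPM with a median of 5.54 in the high libraries and from 0.235 to 4.35 with a median of 0.768 in the low. No library was at 0, 9 high libraries lay above the highest low one, and the classes were apart in 4 of 6 groups. Its log2 fold change was 2.65 ± 0.50 (adjusted p = 0.0318), with batch values of 2.91, 3.62 and 1.01 (adjusted p = 0.943, 0.505 and 0.964). Leaving out single libraries kept the call in 16 of 30 fits, and adjusted p values reached 0.0837.

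Lao1, an L-amino acid oxidase secreted in mouse milk, was rare. The high libraries ran from 0 to 1.34 TPM with a median of 0.170, and the low from 0 to 0.0639 with 10 libraries at 0, which amounted to 194 against 8 counts. The log2 fold change was 4.36 ± 0.76 (adjusted p = 0.0126), and the call was kept in 27 of 30 fits that each left out 1 library. Batches 1 and 2 gave 3.89 and 4.67, with adjusted p values of 0.943 and 0.505. With the neutrophil list level as a covariate the value was 3.80 (adjusted p = 0.163).

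Elf5, an ETS factor needed for alveolar differentiation, followed the milk genes. It ran from 0.811 to 7.56 TPM with a median of 3.43 in the high libraries and from 0.0513 to 1.72 with a median of 0.645 in the low. The classes were apart in 5 of 6 groups and overlapped in young anti-CTLA4 tumours, where the lowest high library had 1.69 and the highest low library 1.72 TPM. High against low libraries gave a log2 fold change of 2.20 ± 0.38 (adjusted p = 0.0126). Within batches it was 2.35, 2.40 and 1.63 (adjusted p = 0.943, 0.605 and 0.964), and with the ribosomal protein level as a covariate 1.97 (adjusted p = 0.126). Without young anti-PDL1 replicate 7 the adjusted p was 0.0533.

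Col9a1, a chain of type IX collagen best known from cartilage, was the 1 higher gene that belonged to none of the lists. Levels were 0.225 to 1.34 TPM with a median of 0.620 in the high and 0 to 0.341 with a median of 0.103 in the low libraries. Of the high libraries 10 lay above the highest low one. The log2 fold change was 2.21 ± 0.43 (adjusted p = 0.0423), kept in 9 of 30 fits without 1 library, and batches gave 2.55, 2.48 and 1.33 (adjusted p = 0.943, 0.605 and 0.964). With the length trend as a covariate the value was 2.21 (adjusted p = 0.106).

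Cxcl1 was lower in the high libraries, at 4.11 to 14.01 TPM with a median of 8.39 against 8.07 to 45.2 with a median of 14.6. The classes overlapped widely, with 6 high libraries below the lowest low one, but the mean of the high libraries was the lower one in all 6 groups, as for 8.07% of genes. The log2 fold change was -1.38 ± 0.27 (adjusted p = 0.0423), with -1.18, -1.38 and -1.69 in the 3 batches (adjusted p = 0.943, 0.605 and 0.964). The call was kept in 8 of 30 fits without 1 library, the fewest of the 8 genes. It did not pass with the neutrophil level (-1.19, adjusted p = 0.159), the length trend (-1.26, adjusted p = 0.122) or the ribosomal protein level (-1.12, adjusted p = 0.565) as a covariate. The neutrophil list holds Cxcl2, a neighbour of the same family, so that level is not independent of Cxcl1.

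**Figure D3:**
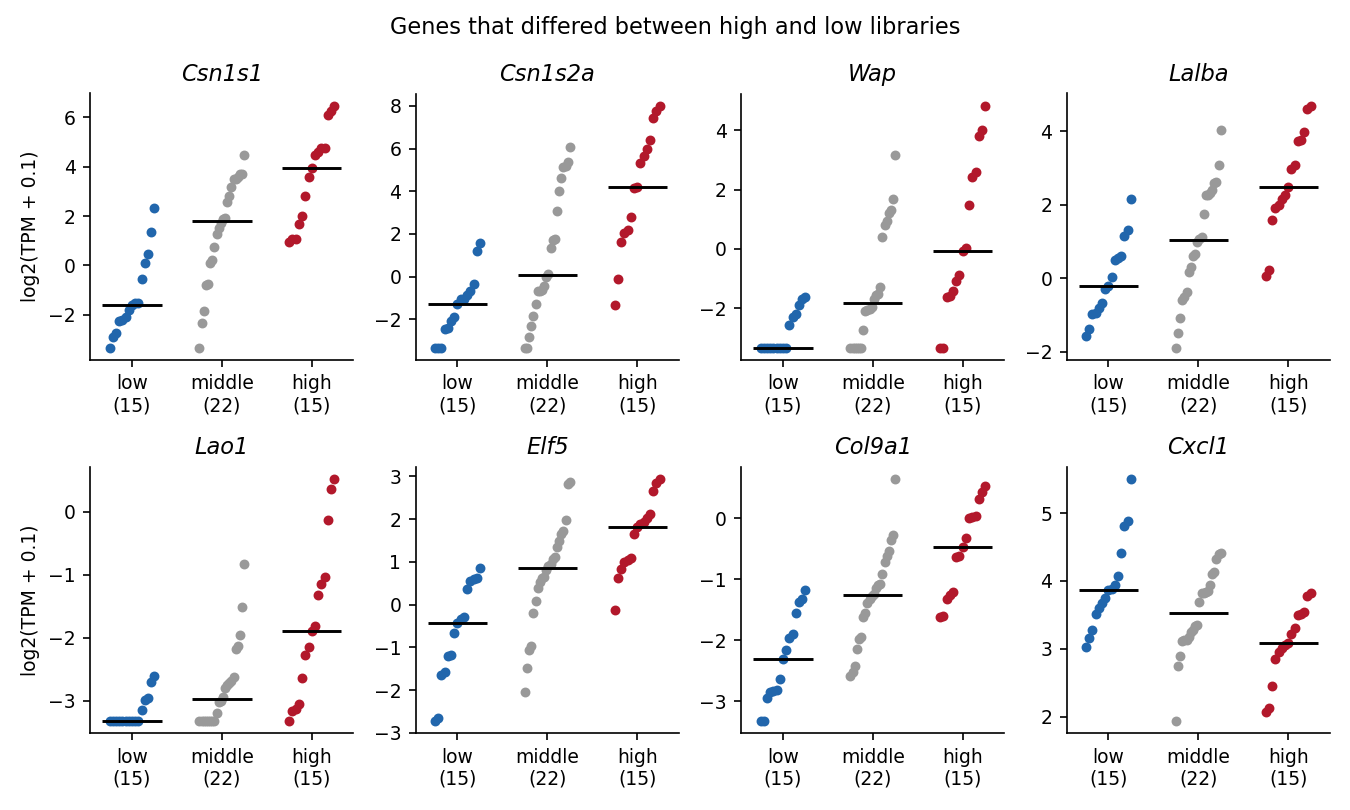
Level of the 8 genes that passed, as log2(TPM + 0.1), in the low, middle and high libraries, with 1 point for each library and a bar at the median. Csn1s1, Csn1s2a, Wap, Lalba, Lao1, Elf5 and Col9a1 have higher medians in the high libraries and Cxcl1 a lower one, and the middle libraries, which the comparison did not use, lie between or across the classes.

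The number of genes that passed moved with single libraries. It was 3 without young anti-PDL1 replicate 7, 4 without old anti-PDL1 replicate 4, and 5 without old anti-CTLA4 replicate 3, old isotype replicate 1, young isotype replicate 2, 3, 6 or 7, or young anti-PDL1 replicate 4. It was 17 without old isotype replicate 6 and 21 without young anti-PDL1 replicate 5. Csn1s1, Csn1s2a and Wap passed in all 30 of these fits. The limit that the filter sets on Csn1s2a and Wap, given above, holds in these fits too. Within single batches the number was 1, 0 and 0, with 671, 1374 and 509 genes at an unadjusted p under 0.05, and the gene in batch 1 was Csn1s1.

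All 15 tested genes of the list of 18 milk proteins had a log2 fold change above 0, with a median of 1.95, where 51.6% of all genes lay above 0 and their median was 0.01. The list was drawn up with earlier results known, and its genes are regulated together with the score genes, so the count is a description. The 5 that passed are given above, 12 had an unadjusted p under 0.05, and DESeq2 called 11 higher. Muc15, a mucin of the milk fat globule, and Cel, a lipase that milk brings to the infant gut, fell just short. Muc15 was at 0.380 to 3.85 TPM with a median of 1.61 in the high and 0.0315 to 1.02 with a median of 0.264 in the low libraries, a log2 difference of 2.14 ± 0.43 (adjusted p = 0.0536). Cel was at 0.532 to 5.01 TPM with a median of 1.48 against 0 to 1.07 with a median of 0.230, a log2 difference of 2.67 ± 0.54 (adjusted p = 0.0538). For both genes the classes were apart in 4 of 6 groups in TMM-scaled CPM.

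Defence and transport proteins of milk did not pass. Pigr, the receptor that carries IgA across epithelium, had a log2 fold change of 1.95 ± 0.49, and lactoferrin (Ltf), which binds iron, had 1.52 ± 0.39. The folate receptor Folr1 had 1.01 ± 0.26, and each of these 3 genes had an adjusted p of 0.114. Milk genes that many cells also make had smaller values: Mfge8, a fat globule protein that macrophages secrete too, had 0.47 ± 0.13 (adjusted p = 0.114), transferrin (Trf) 0.47 ± 0.14 (adjusted p = 0.116) and Muc1 0.30 ± 0.27 (adjusted p = 0.561). Wfdc18, a whey-type protease inhibitor, had 0.93 ± 0.49 (adjusted p = 0.279). Glycam1, made both by the lactating gland and by the high endothelial venules of lymph nodes, was scattered in both classes. It ran from 0.629 to 934 TPM with a median of 23.4 in the high libraries and from 0.130 to 571 with a median of 1.08 in the low (log2 1.31 ± 1.17, adjusted p = 0.553). Lpo (lactoperoxidase) and Sct, with 28 against 10 and 20 against 18 counts, were not tested.

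The machinery that makes milk fat and lactose was not called. Of 22 tested genes of milk fat synthesis and secretion 17 lay above 0, with a median log2 difference of 0.14, and 0 passed by edgeR, with 2 higher and 0 lower at an unadjusted p under 0.05. The largest was Fabp3, a fatty acid carrier, at 0.197 to 12.2 TPM in the high and 0.123 to 1.01 in the low libraries (log2 1.18 ± 0.56, adjusted p = 0.231), and the citrate lyase Acly had 0.29 ± 0.12 (adjusted p = 0.184). Of 18 genes of lactose synthesis and secretory transport 14 lay above 0, with a median of 0.18, 0 passing and 4 higher at an unadjusted p under 0.05. They included Slc7a5, an amino acid transporter (0.36 ± 0.14, adjusted p = 0.160), and Orai1, a calcium channel of the plasma membrane (0.23 ± 0.09, adjusted p = 0.159). DESeq2 called 0 genes of either list.

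Of the genes that relay prolactin and set alveolar identity, Elf5 was the 1 that passed among 17 tested. The list median was 0.21, with 14 genes above 0 and 4 at an unadjusted p under 0.05, and DESeq2 called 4 higher. Stat5a and the prolactin receptor Prlr were looked up after values were seen. Stat5a, the transducer of prolactin, was at 5.70 to 22.4 TPM in the high and 2.02 to 15.8 in the low libraries (log2 0.36 ± 0.11, adjusted p = 0.117). Prlr was at 0.0647 to 2.70 against 0.0362 to 1.51 TPM (log2 0.39 ± 0.45, adjusted p = 0.657). The hormone-sensing luminal list, which marks the gland's other luminal cell, had 10 of 12 genes above 0, a median of 0.16 and 0 passing in edgeR or DESeq2, with 1 higher at an unadjusted edgeR p under 0.05. Prom1, a surface protein of those cells, had 0.75 ± 0.31 (adjusted p = 0.178) and the growth factor Areg -0.25 ± 0.14 (adjusted p = 0.309).

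Lists of the ductal epithelium were not called either. Of 24 luminal keratin and junction genes 17 lay above 0 with a median of 0.21, and 0 passed in edgeR or DESeq2, with 4 higher at an unadjusted edgeR p under 0.05. Cldn8, a tight junction protein, had 1.36 ± 0.49 (adjusted p = 0.133), Krt19 0.48 ± 0.20 (adjusted p = 0.179) and Krt8 0.49 ± 0.20 (adjusted p = 0.180). Of 17 basal and myoepithelial genes 11 lay above 0 with a median of 0.15 and 0 passed in edgeR, with 3 higher and 1 lower at an unadjusted p under 0.05, while DESeq2 called 2 higher and 1 lower. Krt15, a basal keratin, was at 0.714 to 10.9 TPM with a median of 2.98 in the high and 0.258 to 3.91 with a median of 0.763 in the low libraries (log2 1.36 ± 0.36, adjusted p = 0.114). The smooth muscle gene Tagln lay on the other side of 0, at -0.56 ± 0.18 (adjusted p = 0.119).

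Markers of the other tissues of the fat pad were set beside the score. Of 15 adipocyte genes 9 lay above 0 with a median of 0.01, and 0 passed in edgeR or DESeq2, with 1 higher at an unadjusted edgeR p under 0.05. Their level per library, the mean log2 CPM (counts scaled to library size) over the list, ran from 2.91 to 6.06 in the high and from 1.48 to 6.02 in the low libraries. B cell genes, abundant in lymph nodes, had 7 of 15 above 0 and a median of -0.06, with levels of 0.0582 to 7.05 against -0.133 to 5.55. With the adipocyte level as a covariate Csn1s1 was at 5.09 and Csn1s2a at 6.60, and with the B cell level at 4.85 and 6.27. Neither level measures the ducts of the host's gland, and the source of the milk transcripts was not tested. Of the 14 skin keratinocyte genes 4 were tested, all below 0 with a median of -0.60, among them Krt10 at -0.72 ± 0.21 (adjusted p = 0.114) and Sbsn at -0.54 ± 0.20 (adjusted p = 0.133). Skeletal muscle genes had 4 of 9 above 0 and a median of -0.16.

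**Figure D4:**
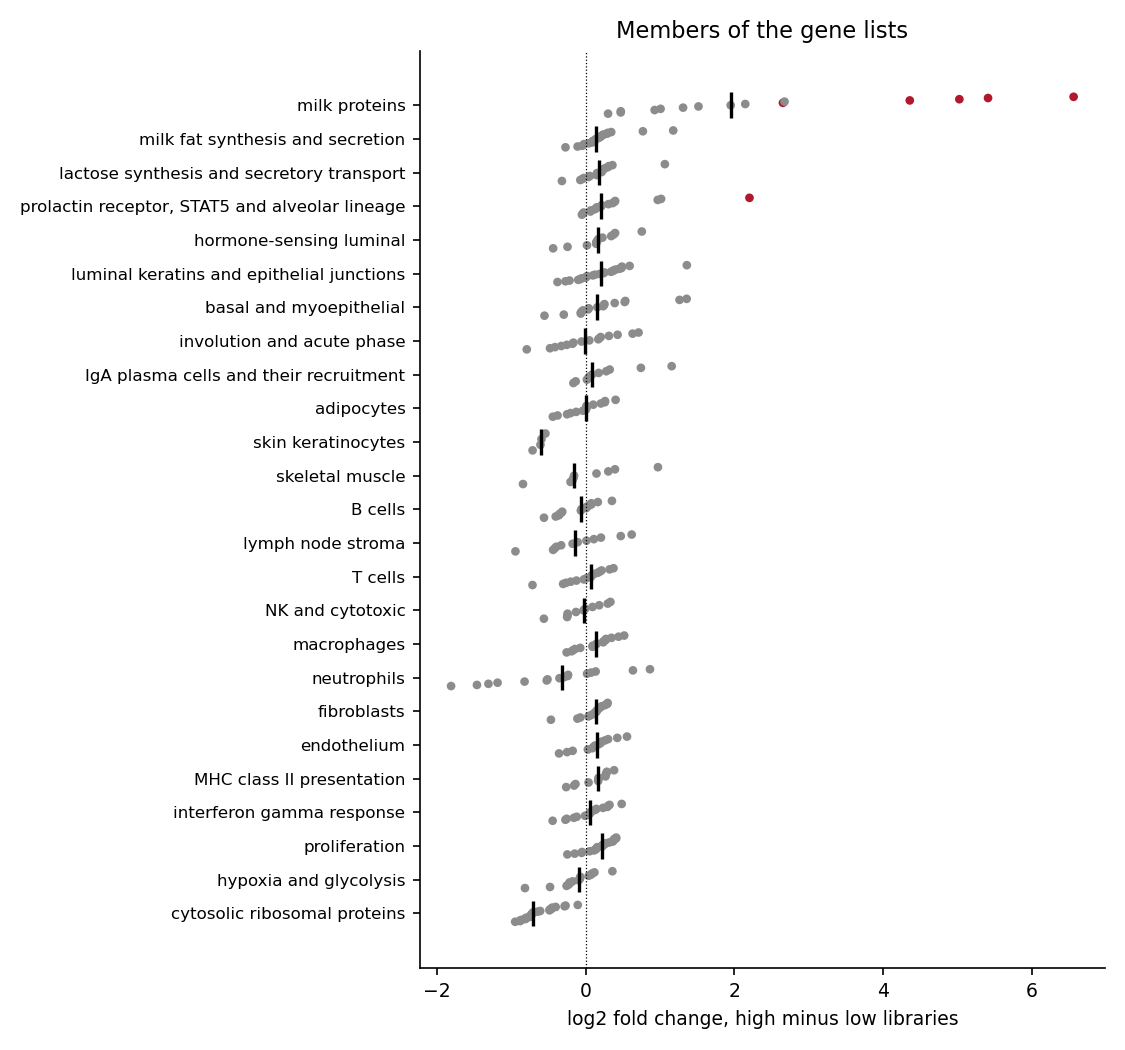
Log2 fold change of high against low libraries for each tested member of the 25 gene lists (1 point for each gene, horizontal axis), with a bar at the list's median and genes past an adjusted p of 0.05 in red. The milk protein list lies to the right with a median of 1.95, and the ribosomal protein list to the left with a median of -0.72 and 0 genes past the threshold.

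Genes of neutrophils lay mostly below 0. Of 16 tested, 11 lay below 0 and 5 above, from -1.81 to 0.86 with a median of -0.32. In edgeR 0 passed, and 5 were lower and 0 higher at an unadjusted p under 0.05, while DESeq2 called 5 lower and 0 higher. Cxcl2 and Il1b are named as the members of smallest p. Cxcl2, a chemokine of the same family and locus as Cxcl1, was at 0.102 to 19.5 TPM with a median of 3.20 in the high and 1.55 to 63.2 with a median of 7.89 in the low libraries (log2 -1.81 ± 0.45, adjusted p = 0.114). Il1b, an inflammatory cytokine, had -0.82 ± 0.20 (adjusted p = 0.114). By the rule for lower genes of smallest p, Stfa2l1, a stefin of neutrophils with near-identical copies that leave its counts uncertain, had -1.64 ± 0.34 (adjusted p = 0.0655). Hilpda, a lipid droplet protein induced by hypoxia, had -0.99 ± 0.22, the decoy receptor Il1r2 -0.77 ± 0.18 and the ribosomal protein gene Rpl39l -1.14 ± 0.27, each with an adjusted p of 0.114. The level of the neutrophil list ran from 1.41 to 4.12 in the high and from 0.925 to 5.64 in the low libraries. The value of Cxcl1 with this level as a covariate is given above.

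Ribosomal protein genes of the cytosol all lay below 0 without passing in edgeR. The median of the 26 was -0.72 with single values from -0.95 to -0.11, 25 had an unadjusted p under 0.05, and DESeq2 called 18 of them lower. Rpl35 was at 616 to 1789 TPM with a median of 929 in the high and 769 to 2473 with a median of 1298 in the low libraries (log2 -0.95 ± 0.28, adjusted p = 0.114). Rps18 had -0.88 ± 0.25 (adjusted p = 0.114). These transcripts are short, and the length trend had different medians in the classes, as given above. With that trend as a covariate, Rpl35 was at -0.34 (adjusted p = 0.352) and Rps18 at -0.34 (adjusted p = 0.331). In the same fit Csn1s1 was at 4.73 and Csn1s2a at 6.60. The trend is computed from these same libraries with the ribosomal protein genes included. This fit therefore cannot separate transcript length from the level of those genes, and the cause was not tested. Proliferation genes had 18 of 22 above 0 and a median of 0.22, with 10 higher at an unadjusted edgeR p under 0.05 and 0 passing in edgeR or DESeq2. Top2a, which untangles chromosomes, had 0.41 ± 0.14 (adjusted p = 0.124) and the replication helicase subunit Mcm2 0.38 ± 0.13 (adjusted p = 0.122).

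The effect was next set out by age, with 9 high and 9 low libraries from young and 6 and 6 from old hosts. Csn1s1 had a log2 fold change of 3.92 ± 0.74 in young and 7.36 ± 1.07 in old hosts, with adjusted p values of 0.0355 and 0.00364. Csn1s2a had 6.05 ± 0.90 and 8.79 ± 1.55, with 0.00619 and 0.0472. No old low library had more than 5 counts of Csn1s1 or 2 of Csn1s2a. The old values are thus set against counts near 0, so their size is uncertain and their calls are a description. The differences between the ages, 3.44 for Csn1s1 and 2.74 for Csn1s2a, did not pass (adjusted p = 1.00 for each). No gene was called for such a difference in edgeR (0.0%), where 354 genes (1.97%) had an unadjusted p under 0.05, and DESeq2 called 2, Fpr1 and the unnamed gene model Gm26778. Wap had 5.45 ± 1.13 in young and 5.33 ± 1.57 in old hosts, and Elf5 1.96 ± 0.50 and 2.49 ± 0.57. The old value of Wap rests on anti-PDL1 replicate 4, with 165 counts, where each other old high library had 7 or fewer. When each age had its own term, 11 genes passed in young hosts (0.0611%), 3 higher (0.0167%) and 8 lower (0.0444%), and 2 in old hosts (0.0111%), Csn1s1 and Csn1s2a. Fits on each age alone called 1 gene each, Csn1s2a in young and Csn1s1 in old hosts, with 1186 and 1992 genes at an unadjusted p under 0.05.

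Of the 8 genes lower in the high libraries of young hosts, 5 lay outside the naming rule and were chosen after their values were seen. They were Fpr1, a receptor for bacterial peptides (log2 -1.28 ± 0.20, adjusted p = 0.00619), Trem1, which amplifies myeloid inflammation (-1.24 ± 0.22, adjusted p = 0.0258), the lectin Clec4d (-2.09 ± 0.38, adjusted p = 0.0286), Prok2 (-1.59 ± 0.30, adjusted p = 0.0335) and the protease Asprv1 (-1.73 ± 0.33, adjusted p = 0.0401). Stfa2l1 had -2.26, Il1r2 -1.12 and Hilpda -1.44, with adjusted p values of 0.0335, 0.0401 and 0.0416. In old hosts Fpr1 was at 0.20 ± 0.21 and Trem1 at -0.12 ± 0.23 (adjusted p = 0.911 and 0.942). The difference of Fpr1 between ages was 1.48 with an adjusted p of 0.528 in edgeR and 1.47 with 0.00364 in DESeq2. The median of the neutrophil list was -0.93 in young and 0.18 in old hosts, a contrast that was not tested. The higher genes of young hosts were Csn1s2a, Csn1s1 and Prl3d2, a placental member of the prolactin family with close paralogs that make its counts uncertain (3.95 ± 0.68, adjusted p = 0.0241). Prl3d2 was at -0.09 ± 0.72 in old hosts.

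The 22 middle libraries, which the rule left out, gave a second look at the same relation. Each gene was fitted on the score with group and batch as terms, and the slope is the log2 change for 1 unit of score. No gene of 17889 passed (0.0%), with 2187 at an unadjusted p under 0.05 (12.2%), and DESeq2 called 34. Csn1s1 ran from 0 to 22 TPM in these libraries and had a slope of 1.79 ± 0.40 (unadjusted edgeR p = 0.000357, adjusted p = 0.398). Elf5 had a slope of 1.33 ± 0.33 (unadjusted p = 0.000811, adjusted p = 0.398), Lalba 1.13 ± 0.45 (p = 0.0223) and Csn1s2a 1.55 ± 0.70 (p = 0.0419). Col9a1 had 0.72 ± 0.29 (unadjusted p = 0.0269), Cxcl1 -0.57 ± 0.23 (p = 0.0257) and Wap 1.09 ± 0.52 (p = 0.0547). Lao1 did not pass the filter there. All 14 tested milk protein genes had a slope above 0, with a median of 0.79, where 48.9% of all genes lay above 0. Of them 6 had an unadjusted p under 0.05, a share of all genes that was 5.67% in this direction. These counts are a description too, since the list's genes are regulated together with the score genes. The adipocyte list had 15 of 16 slopes above 0 with a median of 0.26, and the ribosomal protein list 0 of 26 with a median of -0.34. Of the neutrophil genes 7 of 16 lay above 0, with a median of -0.14.

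**Figure D5:**
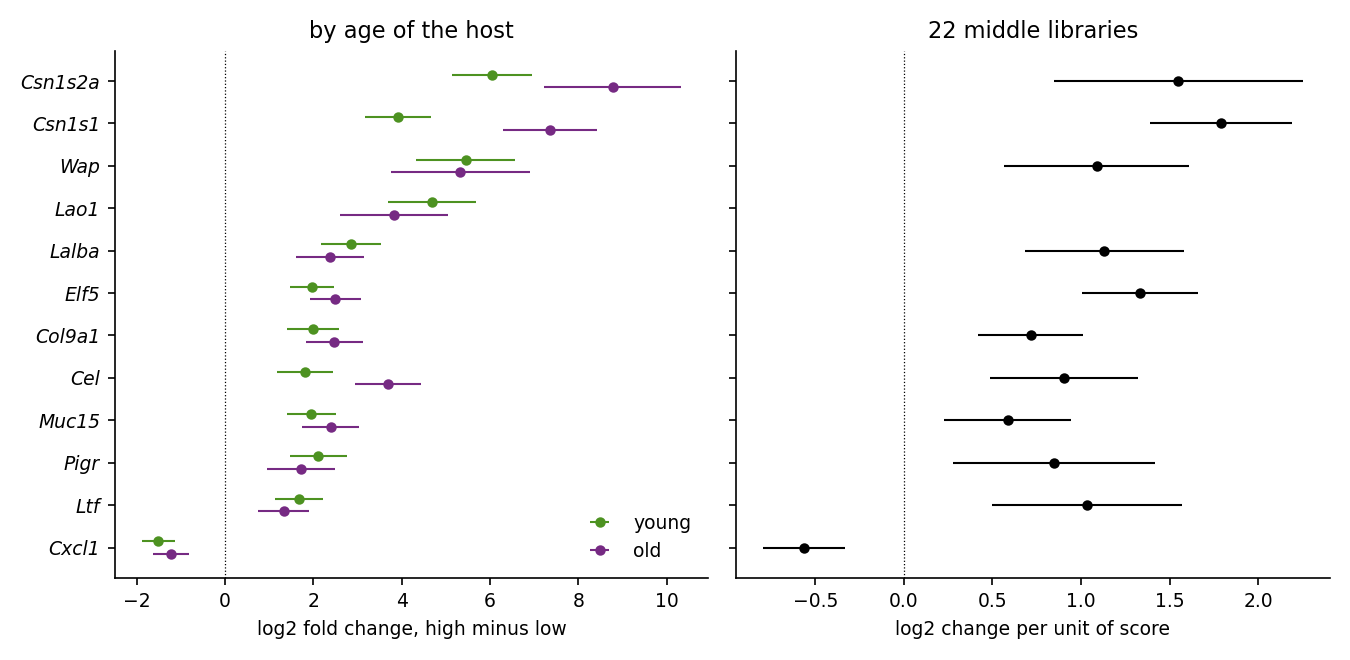
Left: log2 fold change of high against low libraries in young and in old hosts, from 1 fit with a term for each age. Right: slope on the score in the 22 middle libraries, with no value for Lao1, which was not tested there. Bars are SE. Csn1s1 has 3.92 and 7.36 in the 2 ages and a slope of 1.79, and Cxcl1 lies below 0 in each panel.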

How the data were processed

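RNA of 52 4T1 tumours was analysed from 2 deposited tables. Per the submitters' processing notes, Salmon, DESeq2 1.16.1 and mm10 were used, with further steps not given in the sources used here. The authors deposited estimated counts per gene, all whole numbers, and TPM values. Symbols came from GENCODE vM21 for 47224 of 47729 identifiers. Paralogs and overlapping genes are uncertain, since the handling of strand and shared reads is not stated.

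The score used the deposited TPM with a pseudocount of 1. Genes were tested on the estimated counts with edgeR 4.0.16 in R 4.3.3: filterByExpr (minimum count 10) over the 6 groups, TMM factors, terms for group, sequencing batch and class, and quasi-likelihood F tests with 21 residual degrees of freedom. Benjamini-Hochberg adjustment ran over all genes tested, with a threshold of 0.05. The classes were cut on expression in the same libraries, so each test is of association with the score. TPM medians describe levels, and log2 fold changes come from the fit, with an SE derived from the F statistic. Overlap of the classes within a group was judged on TMM-scaled CPM. Values from 5 to 10 libraries of 1 class have the precision of that number of tumours.

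Members, gene lists (25 lists, 418 entries, 1 unmatched) and tests were chosen with earlier results of these data known. Named genes were the milk protein list, the 12 genes of smallest p in each direction that passed with a mean of at least 1 CPM (the 5 of smallest p where fewer than 5 passed), and up to 3 genes per list, some of which are not reported here. Total counts over the 52 libraries ran from 9549847 to 53778370. Of 209 pairs of libraries within a group, the closest differed with a chi-square of 17.5 per degree of freedom, so none was a copy. Alternatives were other scaling, filters, cuts, covariates, DESeq2 1.42.0 and leaving out libraries, groups or batches.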

Additional observations from a re-analysis of the deposited data

Results flagged for a closer look

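Each result below is a library that stood apart from the others of its class and age in 1 measure, among 313 sets of libraries examined, where chance gives about 1 in 20. The number listed is not far above that share, so each is a description of a single library. Levels are log2 CPM.

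For 6 measures the library was old anti-CTLA4 replicate 6, which is a high library. It had 46165114 counts, where the next of the 6 old high libraries had 25736619, and a TMM factor of 1.213 against 1.074. Of the hypoxia genes, Ankrd37 was lowest there, at 2.70 against 4.11, as was Bnip3, at 6.12 against 7.23. The myeloid lectin Clec4d was also lowest, at 2.40 against 3.76, and the B cell adaptor Blnk highest, at 4.99 against 3.68. Without this library Csn1s1 and Csn1s2a passed, as in all 30 such fits. Old anti-PDL1 replicate 4, also high, was highest for Wap, at 2.60 against -1.32, and for the endothelial gene Egfl7, at 5.25 against 5.03, and lowest for the T cell gene Cd3d, at 0.979 against 2.86. Old isotype replicate 1 was lowest for Muc1, at 0.526 against 1.78, and for Slc7a5, at 5.64 against 6.33.

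Among the old low libraries, anti-PDL1 replicate 6 alone had counts of Lao1, at -2.23 where the other 5 stood at -3.56. Anti-PDL1 replicate 2 was lowest for the fibroblast gene Dpt, at 4.31 against 6.24. Isotype replicate 6 was highest for Krt15, at 1.46 against -0.019, and isotype replicate 3 lowest for Orai1, at 3.45 against 3.87.

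Among the young high libraries, anti-CTLA4 replicate 7 was highest for Blnk, at 6.31 against 4.28, anti-CTLA4 replicate 2 highest for Rpl35, at 9.80 against 8.71, and isotype replicate 7 lowest for the stromal gene Bst1, at 3.15 against 4.65. Among the young low libraries, anti-PDL1 replicate 2 was lowest for Bst1, at 3.38 against 5.19, and for Prok2, at -0.12 against 0.78, and isotype replicate 2 lowest for Trem1, at 3.33 against 3.94.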

How the results depend on the processing

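The 8 genes that passed kept their direction in every alternative that tested them. Csn1s1 passed in 24 of 28 settings and 30 of 30 fits without 1 library, Csn1s2a in 23 of 28 and 30 of 30, and Wap in 16 of 24 and 30 of 30. Elf5 passed in 29, Lao1 in 27, Lalba in 16, Col9a1 in 9 and Cxcl1 in 8 of the 30. Against the main count of 8, the number of genes was 998 with DESeq2, 34 with no filter, 24 with no batch term, 51 with the groups cut at their middle, 2759 for a slope over 52 libraries, 14 with the adipocyte level and 5 with the ribosomal protein level as a covariate, and 4 without libraries of a TMM factor under 0.8. It was 1, 0 and 0 within batches 1, 2 and 3, 1 in young and 1 in old libraries alone, and 2 for old hosts in the joint fit. Without a group it was 4 (old anti-CTLA4), 5 (old isotype), 3 (old anti-PDL1), 5 (young anti-CTLA4), 2 (young isotype) and 2 (young anti-PDL1). Without 1 library it ran from 3 to 21. In the middle libraries the count of 0 became 34 with DESeq2 and ran from 0 to 2 without 1 library. The count of 0 for ages became 2 with DESeq2 and 2 with no filter, and stayed 0 in each fit without 1 library. Except where fewer libraries or genes were tested, the cause was not tested.

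With the replicate number as a block the count was 0, with 674 genes at an unadjusted p under 0.05. The labels do not say whether a number marks a shared day or litter. Of 113 pairs with the same number 43 correlated above 0.1, with a median of -0.0201 against -0.0108 for other numbers. Of 50 libraries 4 correlated best with their own number. These correlations cannot settle whether libraries of the same number belong together. Under the block Muc1 turned to -0.21, Prlr to -0.42 and Tap1 to -0.064.

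Other genes that changed sign were not among the 8, though Fpr1, Prok2 and Prl3d2 had passed in young hosts in the joint fit. With the ribosomal protein level as a covariate these were Acly (-0.016), Ankrd37 (0.065), Pnpla2 (-0.018), Postn (-0.049), Prlr (-0.094) and Tek (-0.0059). In batch 3 they were Blk (2.05), Cd3g (0.022), Fabp3 (-0.56), Muc1 (-0.35), Prf1 (-0.27) and Tap1 (-0.35). In batch 1 they were Bst1 (0.036), Fpr1 (0.29), Klre1 (0.30) and Prok2 (0.055), and in batch 2 Prlr (-0.15). In old libraries alone they were Fpr1 (0.18), Prl3d2 (-0.11) and Prok2 (0.12), and in young libraries alone Prf1 (-0.056). Blnk turned to -0.038 with floor(n/4) libraries at each end and -0.049 with the slope over all libraries, and Prf1 to -0.050 with the groups cut at their middle. Blk turned to 0.16 without the group old anti-PDL1, and over fits without 1 library it ran from -1.08 to 0.17, with 0.14 without young isotype replicate 2. Depth limits Wap and Lao1, with 8 counts each over the low libraries, and both passed the filter through the high libraries alone. Csn1s2a would not have passed it on the low libraries alone. For these genes the number of settings passed is a description too.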

Other observations

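The lists of tumour stroma and of immune cells held no gene called between high and low libraries in edgeR. Cxcl1, which passed, is on none of these lists, and bulk RNA does not say which cells made it. DESeq2 called the macrophage gene Csf1r higher, 5 neutrophil genes lower, and of the lymph node stroma list Mfge8 higher, which is also on the milk protein list. Among 16 macrophage genes 11 lay above 0 with a median log2 difference of 0.14, and 2 were higher at an unadjusted p under 0.05. Csf1r, the receptor for macrophage growth factor, had 0.44 ± 0.12 (adjusted p = 0.114). Fibroblast genes had 13 of 16 above 0 and a median of 0.14, with the matrix gene Postn at 0.29 ± 0.16 (adjusted p = 0.291). Endothelial genes had 11 of 14 above 0 and a median of 0.15. T cell genes had 10 of 16 above 0 with a median of 0.07, and genes of NK and cytotoxic cells 4 of 11 with a median of -0.03. Genes of MHC class II presentation had a median of 0.17, with the invariant chain Cd74 at 0.38 ± 0.21 (adjusted p = 0.299), and the interferon gamma response had a median of 0.06. Lymph node stroma had 5 of 12 above 0 with a median of -0.14. In the middle libraries 0 of 11 NK and cytotoxic genes and 3 of 16 T cell genes had a slope above 0.

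IgA plasma cells, which home to the lactating gland, and genes of involution were also examined. Of 11 genes of IgA plasma cells 9 lay above 0 with a median of 0.08. Igha, the constant region of IgA, was at 2.61 to 102 TPM with a median of 11.0 in the high and 0.633 to 32.2 with a median of 5.03 in the low libraries (log2 1.15 ± 0.60, adjusted p = 0.270). Involution and acute phase genes split evenly, with 8 of 16 above 0 and a median of -0.005. Saa3, an acute phase protein, had -0.79 ± 0.33 (adjusted p = 0.171) and Tgm2, a crosslinking enzyme, 0.43 ± 0.17 (adjusted p = 0.155). Hypoxia and glycolysis genes had 5 of 16 above 0, with the mitophagy receptor Bnip3 at -0.82 ± 0.21 (adjusted p = 0.114).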
